A study of Mus musculus with 2 samples.

Results

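Transcripts of 9 genes linked to progenitor, fetal or YAP-dependent states of liver cells were counted in single droplets of hepatocyte preparations of undamaged and regenerating mouse liver. The genes are Tnfrsf12a, Yap1, Cyr61, Ctgf, Spp1, Sox9, Cd24a, Gata6 and Igf2bp3, chosen by name as 9 of the 27998 genes counted. Hepatocytes were obtained by collagenase perfusion in 2 steps from mice on a normal diet, C57BL/6 and aged 10 to 12 weeks by the labels. The study's methods give male C57BL/6J mice and a lower age at surgery. The undamaged group (0 h) is 1 library, and the PHx48h group is 1 library taken 48 h after partial hepatectomy (PHx), an operation that takes away part of the organ, so every comparison sets 1 library of 1 hepatocyte preparation against another. No p-value can be given with 1 library per group, and all intervals are 95% intervals that cover counting error only. The counts are unique molecular identifiers (UMIs), each standing for 1 captured transcript, assigned to droplet barcodes of a 3' assay.

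Hippo signalling is a kinase cascade that keeps the coactivator YAP out of the nucleus. When the cascade is low, YAP binds TEAD factors and raises genes such as Cyr61 and Ctgf, which encode secreted matrix-associated proteins of the CCN family. Tnfrsf12a encodes Fn14, the receptor of the cytokine TWEAK, which is known to be induced in injured liver and to drive growth of progenitor cells. Spp1 encodes osteopontin, a secreted ligand of integrins and CD44 that marks bile duct cells, as do the transcription factor Sox9 and the surface protein Cd24a. Gata6 is a transcription factor of endoderm development, and Igf2bp3 is an RNA-binding protein of fetal tissue that is low in adult organs.

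Because the libraries differed in the mitochondrial share of their UMIs, the genes were measured in barcode sets and on non-mitochondrial UMIs, as counts scaled to a common total (CPM, the counts per 1000000 non-mitochondrial UMIs of the set). Over 30% mitochondrial UMIs were found in 3870 of 59202 barcodes at 0 h and in 765 of 1586 at 48 h. Under 2% were found in 52587 barcodes at 0 h and in 522 at 48 h. The median barcode of the set over 30% held 1213.5 non-mitochondrial UMIs at 0 h and 4411 at 48 h, and that of the set under 2% held 1413 and 5271.5. The summed level of 10 hepatocyte markers was 110901 and 106600 CPM in the set over 30%, at 0 h and 48 h, against 92121 and 75521 CPM in the set under 2%, and all 10 markers were detected in each. The libraries shared 148 barcode sequences, and no doublets were removed. The study itself left out cells with high mitochondrial content. It kept fewer cells at 48 h, and far fewer at 0 h, than the barcodes counted here. The set over 30% can therefore hold barcodes that the study left out, and most barcodes at 0 h were not among its cells. Which barcodes of either set held an intact cell was not tested.

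All 9 genes matched the annotation of the GRCm38 build by identifier, each as a protein-coding gene. Tnfrsf12a lies on chromosome 17 from 23675445 to 23677468, Yap1 on chromosome 9 from 7931999 to 8004596, and Cyr61, there named Ccn1, on chromosome 3 from 145646976 to 145649981. Ctgf, there named Ccn2, lies on chromosome 10 from 24595442 to 24598683, on the same chromosome as Cd24a, from 43578284 to 43584265. Spp1 lies on chromosome 5 from 104435118 to 104441050, Sox9 on chromosome 11 from 112782224 to 112787760, and Igf2bp3 on chromosome 6 from 49085223 to 49214957. Spp1 overlaps an unnamed gene model on its own strand, whose reads could not be told apart from its own. Promoter windows from RefSeq (GRCm38.p6, 250 bases before to 50 after a gene's start) were at hand for 5 of the 9 genes, Cyr61, Yap1, Tnfrsf12a, Spp1 and Igf2bp3. The windows were searched on both strands for 1 motif, the TEAD core GGAATG, which 14.7% of all 32851 windows held on either strand. Cyr61 held it 103 bases and Yap1 141 bases before the start, counted to the first base of the motif, and no match was found in these letters in the windows of Tnfrsf12a, Spp1 or Igf2bp3. The windows of the 4 genes that the results below turn on are printed 5' to 3', with the motif in capitals. They are at chr3:145649936-145650235 (minus strand), chr9:8004547-8004846 (minus strand), chr17:23677400-23677699 (minus strand) and, for the first of 2 windows of Spp1, chr5:104434861-104435160 (plus strand).
Cyr61: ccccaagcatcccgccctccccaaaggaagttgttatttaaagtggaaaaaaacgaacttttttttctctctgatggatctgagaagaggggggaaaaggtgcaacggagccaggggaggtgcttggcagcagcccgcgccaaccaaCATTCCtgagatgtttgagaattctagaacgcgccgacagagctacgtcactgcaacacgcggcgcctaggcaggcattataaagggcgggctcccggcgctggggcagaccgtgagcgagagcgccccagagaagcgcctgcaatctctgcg
Yap1: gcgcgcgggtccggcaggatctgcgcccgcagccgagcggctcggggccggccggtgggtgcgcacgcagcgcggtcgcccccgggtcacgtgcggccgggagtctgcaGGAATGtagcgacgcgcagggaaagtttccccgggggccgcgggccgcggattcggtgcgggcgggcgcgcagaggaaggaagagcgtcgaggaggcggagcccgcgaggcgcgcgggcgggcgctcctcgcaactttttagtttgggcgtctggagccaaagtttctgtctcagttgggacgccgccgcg
Tnfrsf12a: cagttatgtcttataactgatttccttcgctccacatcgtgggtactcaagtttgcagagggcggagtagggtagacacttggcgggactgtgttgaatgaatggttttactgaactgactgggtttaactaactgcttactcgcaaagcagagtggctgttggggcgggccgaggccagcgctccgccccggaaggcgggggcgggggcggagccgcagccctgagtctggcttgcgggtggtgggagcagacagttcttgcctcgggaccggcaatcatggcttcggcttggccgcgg
Spp1: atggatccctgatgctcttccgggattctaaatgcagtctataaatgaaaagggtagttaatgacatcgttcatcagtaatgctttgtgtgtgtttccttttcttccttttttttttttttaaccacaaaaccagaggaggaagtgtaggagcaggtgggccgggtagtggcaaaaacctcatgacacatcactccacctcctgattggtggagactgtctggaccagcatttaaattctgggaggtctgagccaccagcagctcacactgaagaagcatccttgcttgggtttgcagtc

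Across the genes, 3 patterns stood out. The receptor gene Tnfrsf12a was 13.0 times (8.60 to 20.4) higher in the PHx48h library in the barcodes over 30% and 14.2 times (12.0 to 16.6) in those under 2%. Cyr61 and Gata6 were higher at 48 h in the barcodes over 30%, by less, at percentiles 83.2 and 87.0 of the ratios of all genes, while Yap1 and Sox9 were at percentiles 64.6 and 65.6, with intervals that held the median of all genes. Among barcodes over 30%, Spp1 and Cyr61 had opposite gradients along the lobule in both libraries, with Spp1 at the periportal and Cyr61 at the pericentral end.

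Tnfrsf12a, the TWEAK receptor, was counted 25 times at 0 h (4.33 CPM) and 286 times at 48 h (56.0 CPM) in the barcodes over 30%. In the barcodes under 2% it was counted 422 times (5.36 CPM) and 238 times (75.9 CPM). The levels of the 2 libraries did not overlap in their counting intervals in either set. The log2 ratio of 48 h over 0 h was 3.70 (3.10 to 4.35) over 30% and 3.82 (3.59 to 4.06) under 2%, which is at percentile 97.3 and 98.1 among all genes with at least 10 UMIs. No single barcode carried it, since the most UMIs in 1 barcode at 48 h were 4 over 30% and 5 under 2%.

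Cyr61, a direct YAP target, gave 116 UMIs at 0 h (20.1 CPM) and 300 at 48 h (58.8 CPM) over 30%. Under 2% it gave 928 UMIs (11.8 CPM) and 36 UMIs (11.5 CPM). The level was therefore higher at 48 h in the first set, with a log2 ratio of 1.55 (1.24 to 1.87), and close to that at 0 h in the second, with -0.04 (-0.56 to 0.44). The second value ranged from -0.55 to 0.48 over the alternative settings. Of its 36 UMIs, 8 came from 1 barcode, and the ratio was -0.40 without the barcode with most UMIs in each library. Ctgf, the other CCN gene, was counted only 1 and 4 times over 30% and 24 and 1 times under 2%, too few for any order of levels.

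Yap1 itself gave 98 UMIs (17.0 CPM) at 0 h and 164 (32.1 CPM) at 48 h over 30%, a log2 ratio of 0.92 (0.55 to 1.30). Under 2% it gave 1112 UMIs (14.1 CPM) and 50 UMIs (15.9 CPM), a log2 ratio of 0.18 (-0.26 to 0.58). The interval of the first lies above 0 and that of the second spans it.

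Sox9, the duct and progenitor transcription factor, gave 41 UMIs (7.10 CPM) and 70 UMIs (13.7 CPM) over 30%, and its log2 ratio was 0.95 (0.37 to 1.54). Under 2% the counts were 530 (6.73 CPM) and 16 (5.10 CPM), with -0.40 (-1.22 to 0.31). Spp1, the osteopontin gene, gave 166 UMIs (28.7 CPM) and 217 UMIs (42.5 CPM) over 30%, a log2 ratio of 0.57 (0.27 to 0.87). Under 2% it gave 1131 UMIs (14.4 CPM) and 49 UMIs (15.6 CPM), with 0.12 (-0.32 to 0.53). The ratio of Spp1 over 30% was equal to the median of all genes, 0.57, and it was 0.0048 with TMM factors (a scaling by the bulk of genes) and 1.66 with limits of 50% and 1%. Cd24a gave no UMI over 30% in either library, where the floor set for a count of 0, 3 UMIs, would be 0.519 CPM at 0 h and 0.588 CPM at 48 h, and 20 and 0 UMIs under 2%, where 3 UMIs at 48 h would be 0.957 CPM.

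Gata6 gave 24 UMIs (4.15 CPM) and 71 UMIs (13.9 CPM) over 30%, a log2 ratio of 1.74 (1.06 to 2.48). Under 2% it gave 334 UMIs (4.24 CPM) and 24 UMIs (7.65 CPM), with 0.85 (0.19 to 1.45), so that its interval was above 0 in both sets. Igf2bp3 gave 2 and 7 UMIs over 30%, and 18 UMIs (0.229 CPM) and 4 UMIs (1.28 CPM) under 2%, where the log2 ratio of 2.48 (0.46 to 4.08) was 0.26 with 5 CPM added to both levels.

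**Figure D1:**
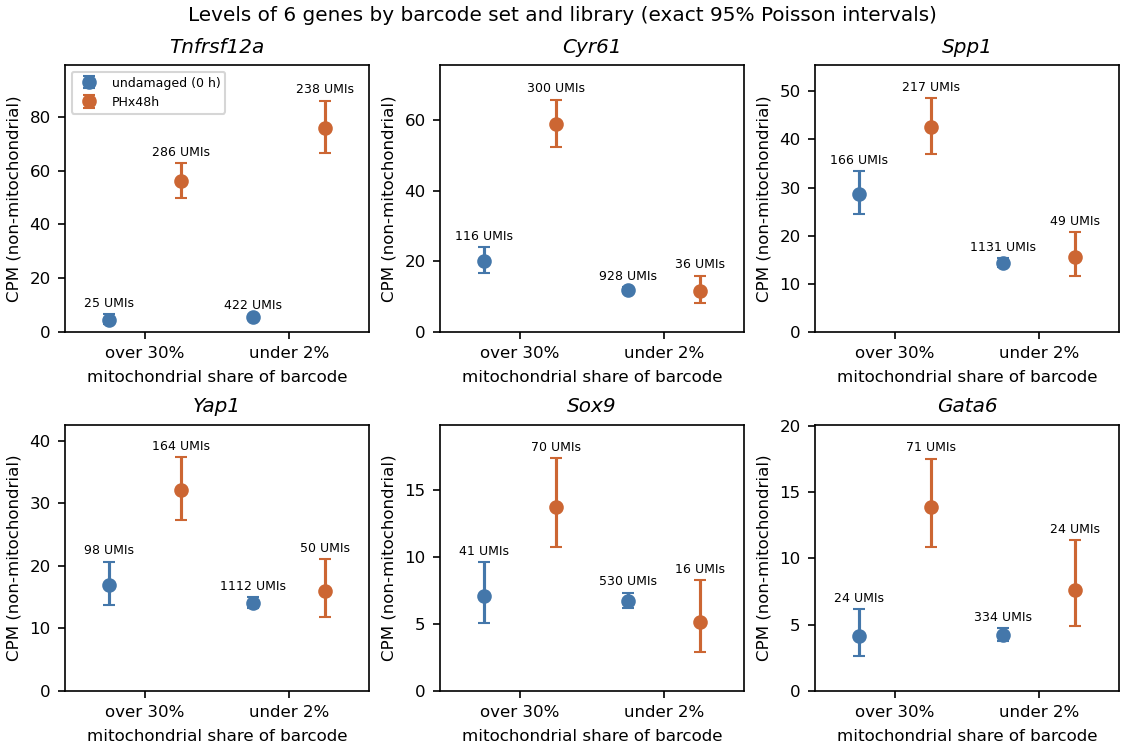
Each panel shows 1 gene, with the CPM of non-mitochondrial UMIs on the y axis and the 2 barcode sets on the x axis. Blue points are the undamaged and orange points the PHx48h library, bars are exact 95% Poisson intervals, and the UMI counts stand above the points. Tnfrsf12a is higher at 48 h in both sets, while Cyr61 is at 20.1 and 58.8 CPM over 30% and at 11.8 and 11.5 CPM under 2%.

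Of the 9 genes, 6 reached 10 UMIs over 30% (all but Igf2bp3, Cd24a and Ctgf), and 3 of these were at least 2-fold higher at 48 h (Tnfrsf12a, Gata6 and Cyr61), where 32.5% of 11067 genes were so and 6.33% were 2-fold lower. Their median log2 ratio was 1.25, beside 0.57 for all genes. Under 2%, 2 of the 8 genes with a ratio were at least 2-fold higher (Tnfrsf12a and Igf2bp3), against 25.4% of 12787 genes, and the median was 0.15 beside 0.06. Cd24a, with 20 UMIs at 0 h and 0 at 48 h, had no finite ratio and is not in that count or median. Genes of that kind were kept in the share and median of all genes. With so few genes, these counts are not read as different from the shares of all genes. With TMM factors the count over 30% was 2, since Cyr61 lay just under 2-fold. The median of all genes over 30% was 0.57 and became 0.0044 with TMM factors and 0.032 with DESeq2 size factors. There the log2 ratio of Cyr61 was 0.99 with TMM factors, that of Yap1 0.36 and that of Sox9 0.39.

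**Figure D2:**
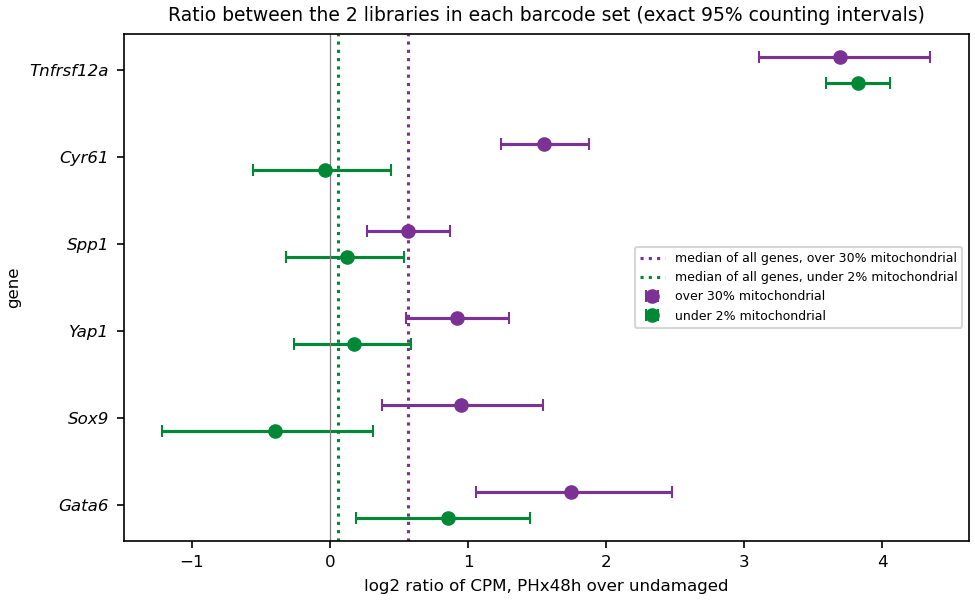
The x axis is the log2 ratio of CPM, PHx48h over undamaged, for the 6 genes on the y axis, with exact 95% counting intervals. Purple is the set over 30% and green the set under 2%, and dotted lines are the medians of all genes, 0.57 and 0.06.

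The ratio differed between the barcode sets for some genes. The log2 ratio over 30% minus that under 2% was 1.59 (1.02 to 2.16) for Cyr61, 1.35 (0.44 to 2.26) for Sox9 and 0.75 (0.20 to 1.29) for Yap1, with normal intervals on the log counts. For Gata6 it was 0.89 (-0.0037 to 1.79), for Spp1 0.44 (-0.06 to 0.95) and for Tnfrsf12a -0.13 (-0.76 to 0.50). All genes also differed, with medians of 0.57 and 0.06. The distance between these medians lies within the intervals of Sox9 and Yap1 and below that of Cyr61. Within the PHx48h library, Cyr61 was higher over 30% than under 2% by 2.36 (1.85 to 2.90) on the log2 scale. Spp1 was higher by 1.44 (0.99 to 1.92), Sox9 by 1.43 (0.63 to 2.31) and Yap1 by 1.01 (0.55 to 1.5). Thus 4 of the 7 genes with a ratio were at least 2-fold higher, where 37.4% of all genes were and 6.74% were 2-fold lower. Tnfrsf12a went the other way, with -0.44 (-0.69 to -0.18). At 0 h, Spp1 with 1.0 (0.76 to 1.24) and Cyr61 with 0.77 (0.48 to 1.05) had intervals above 0 between the same sets, and 17.2% of all genes were at least 2-fold higher and 12.9% lower.

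Marker levels of other cell types stand beside these ratios. Over 30%, the summed level of 10 endothelial markers was 34.4 CPM at 0 h and 52.7 at 48 h, that of 10 stromal markers 24.7 and 30.8, of 10 macrophage markers 37.7 and 26.1, and of 10 cholangiocyte (bile duct) markers 12.8 and 12.9. The erythroid sum was 54.5 and 27.6 CPM and the dendritic sum 331 and 222 CPM, and those of mesothelial, T or NK, B and neutrophil markers were at most 1.21 CPM. Of the cholangiocyte markers, Krt19, Cftr and Sctr were among those at 0 in both libraries, and Krt7 and Epcam at 0 h. Under 2% the stromal markers were at 30.4 and 180.8 CPM, and the endothelial markers at 29.2 and 27.1. Their part in the results was not tested. Without the barcodes of non-hepatocyte and unnamed clusters the log2 ratio of Cyr61 was 1.56 over 30% and -0.080 under 2%.

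Hepatocytes of a lobule differ by their place, since those around the portal tract make urea and glucose, while those around the central vein carry out glutamine synthesis and drug metabolism. To see where the genes lie along this axis, the barcodes of each set were ranked by the log2 ratio of 8 pericentral genes (Glul, Cyp2e1, Oat, Cyp1a2, Rhbg, Slc1a2, Cyp2a5 and Slc13a3) over 8 periportal genes (Cyp2f2, Hal, Sds, Hsd17b13, Hsd17b6, Pck1, Gls2 and Uroc1), with 1 UMI added to each sum, and divided into 3 equal tertiles. None of the 9 genes is in these lists, which were added after clusters of the data had been seen. Among barcodes over 30%, each tertile held 1290 barcodes at 0 h and 255 at 48 h.

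Over 30%, Spp1 was periportal in both libraries. At 0 h it had 95 UMIs (45.5 CPM) in the periportal, 63 (32.0 CPM) in the middle and 8 (4.64 CPM) in the pericentral tertile. At 48 h these were 166 (69.3 CPM), 43 (30.8 CPM) and 8 (6.10 CPM). The order is the same at both times, and the outer tertiles did not overlap in their intervals. The log2 ratio of the pericentral over the periportal tertile was -3.29 (-4.55 to -2.26) at 0 h and -3.51 (-4.74 to -2.49) at 48 h. At least 2-fold higher in the periportal tertile were 3.49% of 9166 genes at 0 h and 5.11% of 9879 at 48 h.

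Cyr61 was pericentral in the same barcodes. At 0 h it had 17 UMIs (8.14 CPM), 14 (7.12 CPM) and 85 (49.3 CPM) from the periportal to the pericentral tertile, and at 48 h 113 (47.2 CPM), 62 (44.4 CPM) and 125 (95.3 CPM). The log2 ratio of the outer tertiles, pericentral over periportal, was 2.60 (1.84 to 3.44) at 0 h and 1.01 (0.64 to 1.39) at 48 h, and 9.8% and 4.86% of genes were at least 2-fold higher at that end. Its gradient was thus flatter at 48 h, where the periportal level was higher than at 0 h by 2.53 (1.79 to 3.36) on the log2 scale and the pericentral level by 0.95 (0.54 to 1.37). These 2 ratios differed by 1.58 (0.75 to 2.42, normal interval on the log counts).

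The other genes had weaker gradients or none that the counts could show. Sox9 at 48 h had 42 UMIs (17.5 CPM) in the periportal and 9 (6.86 CPM) in the pericentral tertile, a log2 ratio of -1.35 (-2.58 to -0.29), and at 0 h 11 and 7 UMIs, with -0.38 (-1.98 to 1.12). Yap1 at 48 h had 93 UMIs (38.8 CPM) and 36 UMIs (27.4 CPM), with -0.50 (-1.10 to 0.07). Tnfrsf12a at 48 h was at 53.0, 65.9 and 51.1 CPM in the 3 tertiles, with a log2 ratio of the outer ones of -0.05 (-0.50 to 0.38), and its log2 ratio of 48 h over 0 h was 3.21 (2.35 to 4.20), 3.70 (2.75 to 4.80) and 4.88 (3.27 to 7.19), so that it was higher at 48 h in every tertile. Gata6 at 48 h was at 12.9, 19.4 and 9.91 CPM, with intervals that overlapped.

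In the barcodes under 2% these gradients were not found at 0 h, where the zonation score was also less spread. Its median went from 0.585 in the periportal to 1.91 in the pericentral tertile, against -1.58 and 2.81 over 30%. Under 2% at 0 h, Spp1 was at 14.4, 14.5 and 14.2 CPM from the periportal to the pericentral tertile, on 373, 385 and 373 UMIs, and Cyr61 at 11.6, 11.4 and 12.4 CPM, and 1.05% and 1.68% of all genes were 2-fold higher at the pericentral and the periportal end. At 48 h, Spp1 under 2% was at 9.28, 15.7 and 23.2 CPM on 11, 15 and 23 UMIs, an order opposite to that over 30%, with a log2 ratio of 1.32 (0.23 to 2.50), beside 3.51% and 5.53% of genes. Cyr61 was there at 14.3, 3.13 and 16.1 CPM on 17, 3 and 16 UMIs. Its log2 ratio of the outer tertiles was 0.17 (-0.91 to 1.24), so no pericentral gradient was seen at 48 h either. Depth differed between the tertiles over 30% at 48 h, where the median barcode held 7319 non-mitochondrial UMIs at the periportal and 3697 at the pericentral end, and 1255.5 and 1197 at 0 h.

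**Figure D3:**
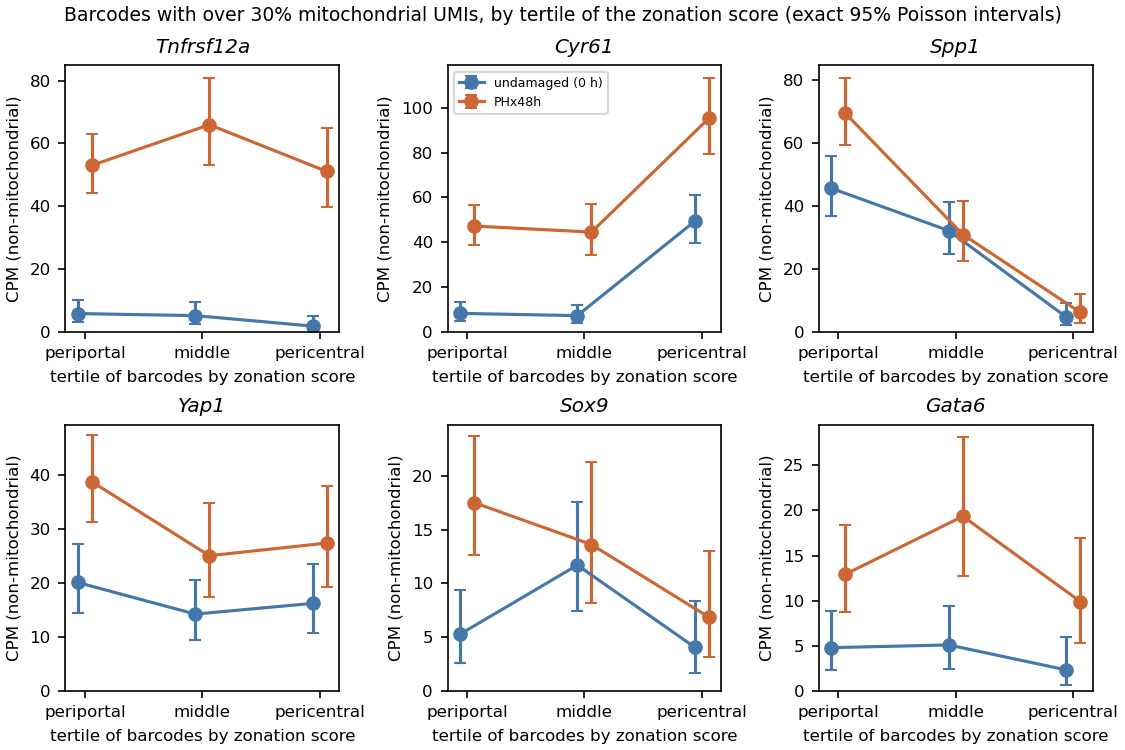
The x axis gives the 3 tertiles of barcodes over 30% mitochondrial UMIs by zonation score and the y axis CPM of non-mitochondrial UMIs, with exact 95% Poisson intervals, blue for undamaged and orange for PHx48h. Spp1 goes down from 69.3 to 6.10 CPM at 48 h towards the pericentral end and Cyr61 goes up from 47.2 to 95.3 CPM, while Tnfrsf12a is high in all 3 tertiles at 48 h.

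Several clusters of the barcodes over 30%, made without the 9 genes, showed the same opposite order, but others at 48 h did not. The lists behind the tertiles were added after the clusters had been seen. They share leading genes with these clusters, among them Slc1a2, Rhbg, Glul, Sds, Hsd17b6 and Cyp2f2. The clusters are therefore not a separate check of the gradients. At 0 h, the cluster of 871 barcodes led by Malat1, Sds, Hsd17b6 and Cyp2f2 had Spp1 at 49.5 CPM (107 UMIs) and Cyr61 at 9.26 CPM (20 UMIs). The cluster of 452 barcodes led by Slc1a2, Rhbg and Glul had Spp1 at 4.28 CPM (3 UMIs) and Cyr61 at 71.4 CPM (50 UMIs). In 154 barcodes led by Adra1b and Tmem63b, which held no Cyr61, Spp1 was at 60.0 CPM on 11 UMIs, 6 of them in 1 barcode. At 48 h, a cluster of 121 barcodes led by Cyp2a5, Rhbg, Cyp7a1 and Glul had Spp1 at 5.47 CPM (5 UMIs) and Cyr61 at 90.8 CPM (83 UMIs). A cluster of 150 barcodes with Slc47a1, Aspg and Hal among their leading genes had Spp1 at 79.9 CPM (39 UMIs, 16 of them in 1 barcode) and Cyr61 at 30.7 CPM (15 UMIs). The 60 barcodes led by Cyp7a1 and Cyp2c29 held no Spp1 UMI (interval 0 to 18.1 CPM). They had Cyr61 at 59.0 CPM (12 UMIs, 30.5 to 103). In the remaining clusters at 48 h the intervals of the 2 genes overlapped. Spp1 was at 52.9 CPM (20 UMIs, 9 of them in 1 barcode) and Cyr61 at 26.5 CPM (10 UMIs) in the 111 barcodes led by Fam96a. Spp1 and Cyr61 were at 35.4 and 47.6 CPM in the 104 barcodes led by Pold1. They were at 40.1 and 49.1 CPM in the 58 led by Cdc20, and at 71.2 and 73.7 CPM in the 150 led by Malat1.

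Clusters led by cell-cycle genes had Tnfrsf12a levels whose intervals overlapped those of the other large clusters. At 48 h, it was at 55.6 CPM (43 UMIs) in the 58 barcodes led by the mitotic genes Cdc20, Foxm1 and Mki67, and at 54.1 CPM (58 UMIs) in the 104 led by the replication genes Pold1 and Mcm5. It lay between these values and 66.2 CPM in the other 4 hepatocyte clusters with more than 4 of its UMIs, and at 19.7 CPM (4 UMIs, interval 5.36 to 50.4) in the 60 barcodes led by Cyp7a1 and Cyp2c29. Sox9 was highest, at 23.2 CPM (27 UMIs, interval 15.3 to 33.7), in the 150 barcodes led by the nuclear transcript Malat1, where Spp1 was at 71.2 and Cyr61 at 73.7 CPM.

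The share of barcodes with at least 1 UMI of a gene depends on depth, so each barcode was thinned to 500 non-mitochondrial UMIs, leaving out 75 shallower barcodes over 30% at 0 h and none elsewhere. Over 30%, Tnfrsf12a was then found in 0.184% of barcodes at 0 h and 3.27% at 48 h (0.646% and 28.5% without thinning). Spp1 went from 0.949% to 3.01% (2.76% and 14.6% without thinning), Cyr61 from 1.0% to 2.48% (2.82% and 23.3%) and Gata6 from 0.0527% to 0.915% (0.594% and 8.50%). The thinned shares of Gata6 rest on only 2 of 3795 barcodes at 0 h and 7 of 765 at 48 h, from 1 random draw. The size of its change is therefore uncertain. For these 4 genes the exact binomial intervals did not overlap, as for 16% of all genes. For Yap1 with 0.949% and 1.18% and Sox9 with 0.211% and 0.784% they overlapped. Under 2% this held for Tnfrsf12a, with 0.308% and 4.60% (0.797% and 36.8% without thinning), as for 13.3% of all genes. Beside these, 417 macrophage-like barcodes at 0 h (median 1711 non-mitochondrial UMIs) held at least 1 UMI of Yap1 in 2.88%, of Spp1 in 2.40%, of Sox9 in 2.64% and of Cyr61 in 1.20%, without thinning. How much of this was free RNA was not tested. Over 30% at 0 h, at a median of 1213.5, the shares were 2.45% for Yap1, 1.01% for Sox9, 2.76% for Spp1 and 2.82% for Cyr61. As the depths differ and these shares were not thinned, no order is read from them. The 24 macrophage-like barcodes at 48 h (median 5160.5) held Tnfrsf12a in 20.8% (7.13% to 42.2%), an interval that includes the 28.5% over 30% and the 36.8% under 2%, and Yap1 in 8.33% and Spp1 in 4.17%, while Cyr61, Sox9 and Gata6 were in 0 of 24, with an exact upper limit of 14.2%.

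In single barcodes, Spp1 was uneven. Over 30% at 48 h, its 217 UMIs lay in 112 of 765 barcodes, 32 of which held 2 or more and 1 of which held 16. At 0 h, 166 UMIs lay in 107 of 3870 barcodes, 25 with 2 or more and 1 with 9. By contrast the 98 UMIs of Yap1 at 0 h lay in 95 barcodes, and no barcode held more than 2. Spp1 was not alone in this at 48 h. There the 300 UMIs of Cyr61 over 30% lay in 178 barcodes, 63 with 2 or more and 1 with 11.

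Among the non-hepatocyte classes, named from marker genes after clustering without the 9 genes, the counts were small. The classes at 0 h were 417 macrophage-like, 121 endothelial-like, 59 T or NK-like, 26 B-like and 7 dendritic-like barcodes. At 48 h they were 41 stromal-like, 36 endothelial-like and 24 macrophage-like barcodes. No cluster met the rule for cholangiocytes or mesothelial cells, and 1344 barcodes at 0 h and 26 at 48 h stayed unnamed, most of the former led by Ecm1, Dcn and Malat1. The name hepatocyte was close to a default, as hepatocyte transcripts were in every class.

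Cyr61 had its highest class level in the stromal-like barcodes at 48 h, with 29 UMIs in 13 of 41 barcodes and at most 7 in 1, or 110.5 CPM (74.0 to 159) against 11.5 CPM in the barcodes under 2%. Of all genes, 20.5% had an interval above that set in this class. In the endothelial-like barcodes at 0 h, Gata6 and Ctgf had 6 UMIs each, each in 6 barcodes, or 19.9 CPM (7.31 to 43.4), against 4.24 and 0.305 CPM under 2%, where 28.7% of genes had such intervals. Cd24a had 3 UMIs in the T or NK-like barcodes (22.4 CPM, 4.62 to 65.5), 3 in the B-like (53.0 CPM, 10.9 to 155) and 1 in the dendritic-like barcodes, against 0.254 CPM under 2%, where 12.1%, 6.21% and 6.22% of genes were above. Among pairs of named class and gene with at least 10 UMIs in the class and the barcodes under 2% together, these 6 had an interval above the latter. Class barcodes with under 2% mitochondrial UMIs were not taken out of that set. A class and the set it stands beside can therefore share barcodes and UMIs. Ctgf at 48 h fell short of that minimum and was not counted, with 3 UMIs each in endothelial-like (11.2 CPM, 2.30 to 32.7) and stromal-like barcodes (11.4 CPM, 2.36 to 33.4) against 1 UMI under 2% (0.319 CPM, up to 1.78). In macrophage-like barcodes at 0 h and 48 h and endothelial-like barcodes at 48 h no pair of that minimum was above, beside 30.7%, 16.9% and 26.9% of all genes. At Leiden resolution 1.5, Gata6 in endothelial-like barcodes at 0 h had 4 UMIs, 8.12 CPM (2.21 to 20.8), an interval that overlapped. Markers of other cell types stood in these classes too. The stromal-like barcodes at 48 h held 55 UMIs of all 6 mesothelial markers (209.6 CPM, against 0 under 2%) and endothelial markers at 1238 CPM (27.1 under 2%). The endothelial-like barcodes at 0 h held 492 UMIs of all 10 stromal markers (1634 CPM, 30.4 under 2%). Neutrophil markers were at 2652 CPM (355 UMIs, 6 of 7 markers) in the T or NK-like and 812 CPM (46 UMIs, 3 of 7) in the B-like barcodes, against 5.49 CPM under 2%. Their part in the levels of Cyr61, Gata6, Ctgf and Cd24a was not tested. The unnamed barcodes at 0 h held 22 of the 51 Ctgf UMIs of that library (9.77 CPM, 6.12 to 14.8) and 69 Cyr61 UMIs (30.6 CPM, 23.8 to 38.8).

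Tnfrsf12a had no class with an interval above the barcodes under 2%. At 48 h it was at 57.2 CPM (15 UMIs) in stromal-like, 37.8 CPM (5 UMIs) in macrophage-like and 29.8 CPM (8 UMIs, 12.9 to 58.7) in endothelial-like barcodes, the last below the 75.9 CPM of the barcodes under 2%, as were 5.94% of genes. At 0 h it had 3 UMIs each in macrophage-like (3.40 CPM, 0.70 to 9.94) and T or NK-like barcodes (22.4 CPM). It had 1 in endothelial-like barcodes (3.32 CPM, 0.08 to 18.5). The macrophage-like interval at 48 h (12.3 to 88.2) was thus above that at 0 h, on few UMIs, while the endothelial-like intervals of the 2 times overlapped. At Leiden resolution 1.5 the macrophage-like intervals overlapped too. There they were 0.36 to 10.9 CPM (2 UMIs) at 0 h and 10.3 to 73.9 CPM (5 UMIs) at 48 h. Spp1 was at 16.6 CPM (5 UMIs) in endothelial-like and 11.3 CPM (10 UMIs) in macrophage-like barcodes at 0 h, and at 14.9, 7.56 and 3.81 CPM in endothelial-like, macrophage-like and stromal-like barcodes at 48 h, on 4, 1 and 1 UMIs. Yap1 was at 29.9 CPM (9 UMIs) in endothelial-like barcodes at 0 h and at 33.5 and 34.3 CPM (9 UMIs each) in endothelial-like and stromal-like barcodes at 48 h, with intervals that held the level under 2%.

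**Figure D4:**
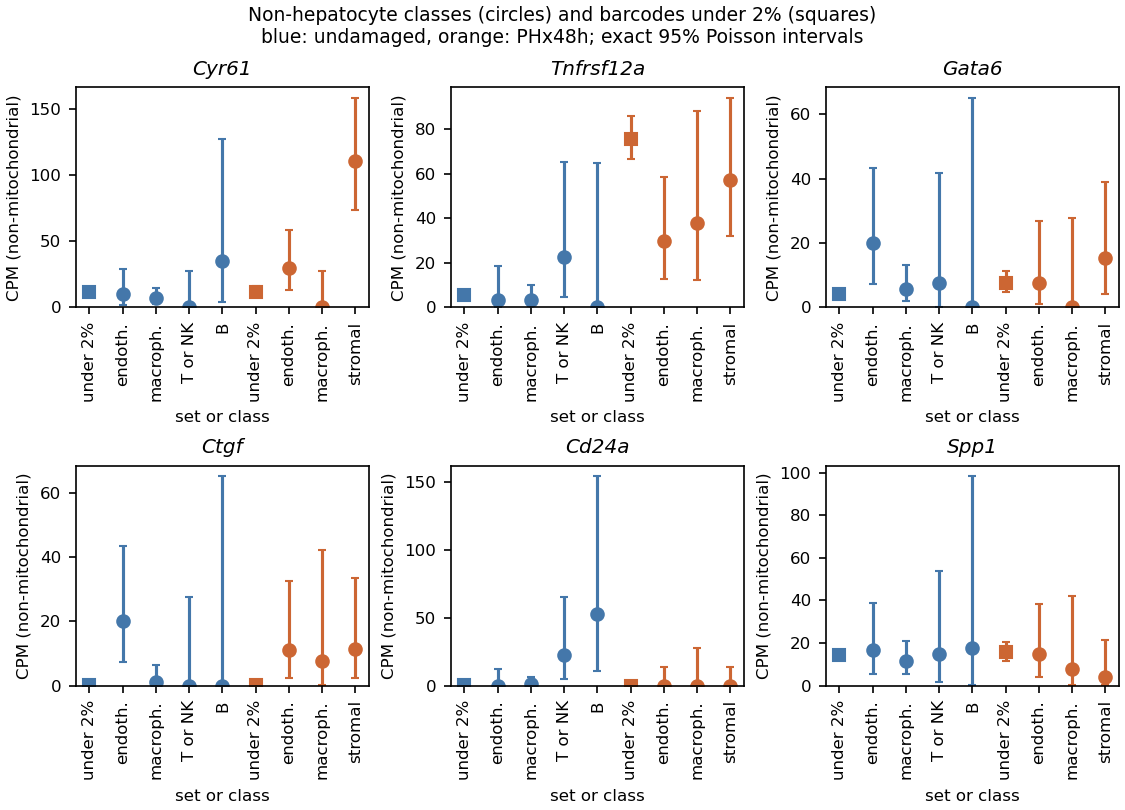
The y axis is CPM of non-mitochondrial UMIs and the x axis the barcodes under 2% (squares) and the non-hepatocyte classes (circles) except the 7 dendritic-like barcodes, blue for undamaged and orange for PHx48h, with exact 95% Poisson intervals. Cyr61 in stromal-like barcodes at 48 h, at 110.5 CPM, lies above the squares, and most other classes have intervals as wide as their level.

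A single barcode held most Spp1 of the PHx48h library. It lay between the sets, with 17.8% mitochondrial UMIs, and held 18967 non-mitochondrial UMIs, of which 703 were Spp1, or 70.2% of the 1002 Spp1 UMIs in the library. It also held all 6 Cd24a UMIs of the library, 7 of its 126 Sox9 UMIs, 5 of its 20 Ctgf UMIs and 95 UMIs of 8 of the 10 cholangiocyte markers, among them 27 of Epcam, 23 of Bicc1, 18 of Krt19 and 10 of Krt7, while Sctr was at 0. Its albumin level was 5641 CPM, against 36965 CPM in the library. The library's level of Spp1 was 87.4 CPM with and 26.1 CPM without it, beside 16.1 CPM at 0 h, and Cd24a went from 0.523 CPM to 0. The next barcode by cholangiocyte markers at 48 h had 10 such UMIs and no Spp1. At 0 h no barcode had more than 5, and 1 with 4 held 26 Spp1 UMIs and 2 of Ctgf. As the barcode is in neither mitochondrial set, it entered none of the ratios above.

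**Figure D5:**
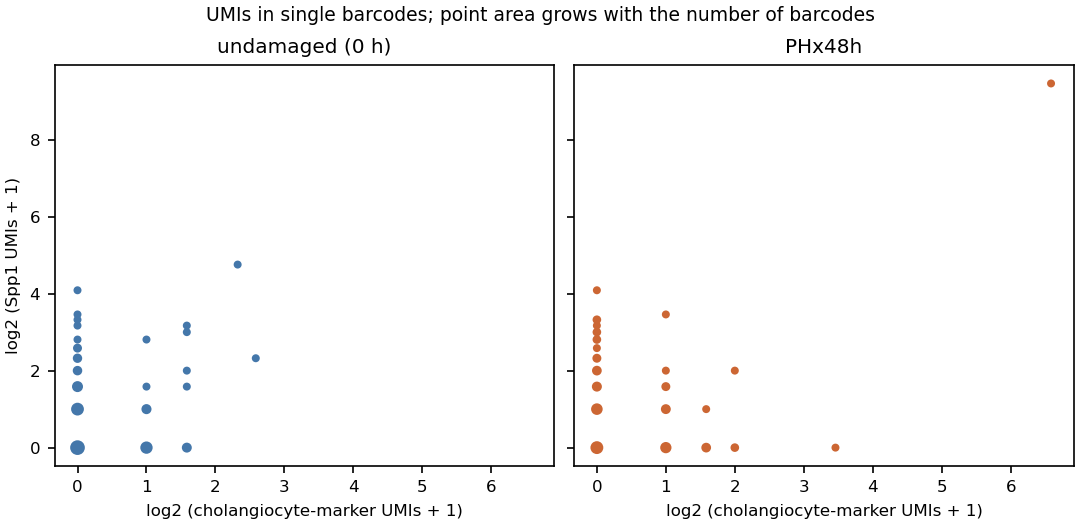
Each point is a combination of cholangiocyte-marker UMIs (x axis, log2 of UMIs + 1) and Spp1 UMIs (y axis, log2 of UMIs + 1) found in at least 1 barcode, with a larger area for more barcodes, in the undamaged library on the left and the PHx48h library on the right. The point at the upper right is the barcode with 95 marker UMIs and 703 Spp1 UMIs.

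Other genes of the same pathways were followed over 30%, from lists of related genes in which some of the 9 genes also stand. The counts of each list are to be read beside the 32.5% of all genes that were at least 2-fold higher and the 6.33% that were lower, and with so few genes none is read as different from these shares. Of 19 Hippo and YAP components with 10 UMIs, 5 were at least 2-fold higher at 48 h and 0 lower, with a median log2 ratio of 0.67 beside 0.57 for all genes. Highest were Tead1, a DNA-binding partner of YAP, with 1.59 (0.99 to 2.22, 32 and 85 UMIs), the scaffold Amot with 1.35 (0.69 to 2.05, 28 and 63 UMIs) and Wwc1 with 1.07 (0.85 to 1.29, 268 and 497 UMIs). The kinase adaptor Sav1, with -0.43 (-1.01 to 0.14), was lowest. Of 12 YAP and TEAD target genes with enough UMIs, 3 were 2-fold higher and 3 lower, with a median of 0.28, below the 0.57 of all genes. Beside Cyr61, the stress gene Gadd45a had 2.18 (1.37 to 3.07, 16 and 64 UMIs) and the kinase Nuak2 1.29 (0.72 to 1.88), whereas the ectoenzyme Nt5e had -1.36 (-2.56 to -0.28) and tissue factor F3 -0.79 (-1.58 to -0.03). The targets of YAP thus lay on both sides of an equal level.

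Of 14 genes of the TWEAK and Fn14 pathway, 6 were 2-fold higher, Tnfrsf12a among them, and 0 lower, with a median of 0.94 beside 0.57. After Tnfrsf12a came the kinase Map3k14 with 1.68 (0.27 to 3.31, 6 and 17 UMIs) and the NF-kB inhibitor Nfkbia with 1.37 (0.99 to 1.75, 86 and 196 UMIs), and the kinase Chuk had -0.14 (-0.33 to 0.04). Of 12 biliary and progenitor genes, 3 were higher and 3 lower, with a median of -0.06, below that of all genes. The Notch target Hes1 had 1.92 (1.57 to 2.28, 89 and 297 UMIs) and the keratin Krt23 3.43 (1.38 to 6.57, 2 and 19 UMIs). Lower were the hepatobiliary transcription factor Onecut1 with -2.04 (-2.51 to -1.59, 232 and 50 UMIs) and the Wnt targets Axin2 with -1.94 (-3.51 to -0.62, 26 and 6 UMIs) and Lgr5 with -1.59 (-2.66 to -0.64, 41 and 12 UMIs).

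Of 8 fetal and oncofetal genes with enough UMIs, 3 were higher and 1 lower, with a median of 0.32, also below 0.57. Beside Gata6, Gata4 had 0.36 (-0.39 to 1.12) and Tbx3 0.29 (-0.29 to 0.87), while the imprinted gene Peg3 had -1.09 (-1.79 to -0.42) and the liver transcription factor Foxa2 -0.70 (-0.95 to -0.46). Among 9 receptors of osteopontin and CCN proteins, 1 was higher and 0 lower, with a median of 0.02 beside 0.57. The integrin genes Itga6 with 1.30 (0.22 to 2.48, 11 and 24 UMIs) and Itga5 with 0.87 (0.52 to 1.22) were highest, and the endocytic receptor Lrp1 had -0.47 (-0.57 to -0.37, 2006 and 1281 UMIs). Under 2%, the medians of the 6 lists ran from -1.13 for the receptors to 0.58 for the fetal genes, beside 0.06 for all genes.

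For the 6 genes with at least 100 UMIs in each library, the genes of most similar level were sought over 12 points, the 2 mitochondrial sets and the classes of each library, among 5170 genes, by Pearson's r of log2(CPM + 5). For Tnfrsf12a they were Cenpm with 0.98, Isyna1 with 0.97 and Rrm2 with 0.95, which encode a centromere protein, an inositol synthase and a subunit of ribonucleotide reductase. For Yap1 they were Scly, Ints7 and Fbxw8 (0.97, 0.97 and 0.96), for Spp1 Pacsin3, Agxt2 and Smoc1 (0.97, 0.95 and 0.92) and for Gata6 Ranbp9, Zhx3 and Zfp637 (0.92, 0.89 and 0.89). For Sox9 they were Soat2, Map2k4 and Anapc7 (0.90, 0.90 and 0.84), and for Cyr61 Tbl3, Sharpin and Lrrc59 (0.86, 0.84 and 0.82). The points share libraries and differ in depth, so these values describe likeness only.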

How the data were processed

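UMI counts of 2 droplet libraries (version 2 chemistry) were analysed, 1 per group. The authors deposited whole-number UMI counts per gene and barcode without normalization, made with Cell Ranger on mm10 per the submitters' processing notes. The Cell Ranger version and annotation were not given in the sources used here. UMIs of 13 mitochondrial genes were left out of levels, which are sums over barcodes as CPM of non-mitochondrial UMIs (library totals 90124407 at 0 h, 11465347 at 48 h). Intervals were exact Poisson for levels, exact conditional for ratios and exact binomial for shares, at 95%. Those for ratios alone were checked, on simulated independent Poisson counts. These hold no clumping of UMIs within barcodes, so the check cannot show its effect on the intervals. Barcodes were clustered per library, separately above and up to 30% mitochondrial UMIs, with Scanpy 1.11.5 (Leiden resolution 1.0, 2000 variable genes without the 9 genes, 30 components, 15 neighbours). Clusters holding markers of other classes were divided once more after the data were seen. A class needed 3 markers in at least 20% of barcodes at 3-fold. No doublet caller was run. A gene needed 10 UMIs over both sums for a ratio.

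The 9 genes, the lists, the tertiles and the rules were chosen with earlier results of these data known. From each list, up to 3 genes at each end were named among those with 20 UMIs. Of 95 markers, 92 were in the files. Alternatives used edgeR 4.0.16 and DESeq2 1.42.0 for scaling factors only.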

Additional observations from a re-analysis of the deposited data

How the results depend on the processing

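Over 30% mitochondrial UMIs, the number of the 9 genes at least 2-fold higher at 48 h was 3 and became 6 with limits of 50% and 1%, and their median log2 ratio of 1.25 became 1.82 with those limits, 0.69 with TMM factors and 0.72 with DESeq2 size factors. Under 2%, the number of 2 became 1 with 5 CPM added and with only genes of 10 UMIs in each library, and the median of 0.15 turned to -0.081 without the 20 most abundant genes, -0.19 with TMM factors and -0.11 with DESeq2 size factors. The cause was not tested, except that scaling moved all genes together. Over 30%, every alternative kept the direction of the 6 genes with a ratio, between 2.71 and 3.88 for Tnfrsf12a, 0.99 and 1.97 for Cyr61, 1.05 and 2.50 for Gata6, 0.36 and 1.19 for Yap1, 0.39 and 1.32 for Sox9, and 0.0048 and 1.66 for Spp1. Under 2%, Tnfrsf12a ran from 2.97 to 3.89, and Yap1, Spp1, Cyr61 and Ctgf took both signs. The gradients of Spp1 and Cyr61 kept their direction without Cyp2e1 and Cyp2f2 in the score and in hepatocyte clusters alone, both added after the data were seen, as was leaving out the barcode with most UMIs of a gene. The 6 pairs of class and gene above the barcodes under 2%, of those with at least 10 UMIs, were 5 at resolution 1.5. Leaving out a replicate was not possible with 1 library per group. No paired analysis was possible because each group has 1 library and no test was run. Sparse counts limit Igf2bp3, Cd24a, Ctgf and all classes.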
